A study of Homo sapiens with 6 samples.

Results

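The Krüppel-like factors (KLF) are transcription factors, and 10 of their genes were followed here: KLF2, KLF3, KLF4, KLF5, KLF6, KLF7, KLF9, KLF10, KLF11 and KLF13. They were taken by name from the gene table, from a list chosen with earlier results of these data known. All 10 of 10 listed genes were present among 15651 genes, and all 10 passed the filter on low values that left 15246 genes to be tested. The cells were MDA-MB-231, a human triple-negative breast cancer line with mesenchymal features, grown in DMEM with fetal bovine serum. One group of 3 libraries came from cells given DMSO, the solvent, and the other group of 3 came from cells given BRL-50481, a small molecule that inhibits phosphodiesterase 7. The study's methods and the treatment text of the labels give 50 μM for 72 h, whereas a tag on the same samples gives 5 μM and 48 h. Each value is a normalized count, the reads assigned to a gene divided by the size factor of its library. All libraries are of 1 cell line, at 1 dose and 1 time as each source states them, so the comparison is of this line under this treatment only.

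The KLF proteins share zinc fingers at the carboxyl end that bind GC-rich and CACCC sequences, as do those of the related SP factors. Their amino-terminal parts differ and sort them into classes. One class (KLF3, KLF8 and KLF12) recruits the CtBP corepressors, another (KLF1, KLF2 and KLF4 to KLF7) binds acetyltransferases and often activates genes, and the last (KLF9, KLF10, KLF11, KLF13, KLF14 and KLF16) recruits SIN3 and its histone deacetylases. In breast epithelium and breast cancer these factors are studied for their part in proliferation, differentiation and the transition to mesenchymal forms. Several of them are immediate-early or hormone-responsive genes. Phosphodiesterase 7 degrades cyclic AMP, a second messenger that acts in part through the factor CREB and its DNA element TGACGTCA.

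Between 30750573 and 33446984 reads per library fell on genes. Over genes with a mean of at least 50, log2 values deviated from their group means with an SD between 0.0964 and 0.141 in the DMSO libraries and between 0.0791 and 0.0832 in the treated ones. DMSO replicate 1 lay farthest from its group. The call on KLF7 below was lost without this library, and also without BRL-50481 replicate 2 and without BRL-50481 replicate 3. Markers of mesenchymal and of epithelial cells were both expressed. Of 6 mesenchymal markers, 5 rose, 0 fell and 1 did not pass the test, with VIM at 58840 ± 2498 in controls and 87654 ± 956 after treatment (mean ± SD, n = 3). By the same test 28.9% of all tested genes rose and 29.8% fell. Among 8 luminal and epithelial markers, ESR1 was not in the table, PGR was under the filter, and of the other 6, 4 rose and 2 fell. KRT18 was at 15205.5 ± 1198 in controls and 12278 ± 412 after treatment, and KRT8 at 6521 ± 684 and 7716 ± 183.5. The ERBB2 call was lost without DMSO replicate 3 (0.16, adjusted p = 0.0663) and without BRL-50481 replicate 2 (0.17, adjusted p = 0.0638). KRT8 lost its call without a trend (adjusted p = 0.0592). With the length and GC correction ZEB1 was called lower (-0.17, adjusted p = 0.000792). The calls on AXL and EPCAM held in 12 and 7 of 17 alternatives. Both were lost without DMSO replicate 3 and without any one of the BRL-50481 libraries, and EPCAM also without DMSO replicate 2 (AXL 0.11 to 0.13, adjusted p from 0.0558 to 0.0985, and EPCAM -0.18 to -0.15, adjusted p from 0.0908 to 0.115). Of 8 markers of blood, endothelial and stromal cells, PTPRC, CD3E and VWF were not in the table, and of the other 5, 3 rose and 0 fell, with CD68 at 3541 ± 231 and 5040 ± 139. The rise of PDGFRB was lost without BRL-50481 replicate 2 (0.27, adjusted p = 0.0581). ACTA2 was called higher without a trend (adjusted p = 0.0265) and with the length and GC correction (adjusted p = 0.0269). The part of these markers in the KLF results was not tested. In such bulk RNA, fewer cells that express a gene and less of its RNA per cell cannot be told apart. PDE7A, which encodes a target of the inhibitor, had 406, 405 and 409 normalized counts in DMSO and 341, 292 and 261 in BRL-50481, a log2 fall with adjusted p = 0.00199 (limma, Benjamini-Hochberg).

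The bases just before the start of transcription are shown for the members that hold a short form of the cyclic AMP response element. RefSeq windows (build GRCh38.p14) of 300 bases, 250 before and 50 after the start, could be used for 8 of the 10 members, all but KLF3 and KLF10. The RefSeq start used for KLF11 lay 279 bases past the start of its canonical GENCODE transcript. The upstream bases of that window therefore lie past the canonical start. For the other members these starts were the same. The letters TGACG, on either strand, occurred in 3 of the 8 windows and in 24.6% of all 35116 windows of that length. The 250 upstream bases of these 3 members, read 5′ to 3′ on the strand of the gene, are given with TGACG or its reverse complement CGTCA in capitals.
KLF4, chr9:107489770-107490019, minus strand: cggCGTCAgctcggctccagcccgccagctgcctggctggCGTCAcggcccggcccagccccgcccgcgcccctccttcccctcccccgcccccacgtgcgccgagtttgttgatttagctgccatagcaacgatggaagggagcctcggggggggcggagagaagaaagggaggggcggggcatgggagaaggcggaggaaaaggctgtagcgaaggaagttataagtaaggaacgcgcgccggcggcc
KLF5, chr13:73058755-73059004, plus strand: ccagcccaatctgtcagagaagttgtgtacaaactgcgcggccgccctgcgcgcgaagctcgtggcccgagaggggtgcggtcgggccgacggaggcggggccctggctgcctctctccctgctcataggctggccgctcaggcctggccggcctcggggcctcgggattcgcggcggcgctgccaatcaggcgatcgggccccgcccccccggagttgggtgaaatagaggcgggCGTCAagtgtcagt
KLF13, chr15:31326585-31326834, plus strand: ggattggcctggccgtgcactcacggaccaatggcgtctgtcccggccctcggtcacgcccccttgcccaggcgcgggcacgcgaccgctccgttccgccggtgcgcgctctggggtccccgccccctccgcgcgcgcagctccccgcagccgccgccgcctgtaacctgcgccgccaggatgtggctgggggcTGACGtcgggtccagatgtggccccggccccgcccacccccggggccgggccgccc
The match began 247 and 210 bases before the start in KLF4, 14 before it in KLF5 and 56 before it in KLF13. Of these 3 genes, KLF5 and KLF13 fell and KLF4 was not called, as given below. Among the members whose windows lacked TGACG, KLF6, KLF7 and KLF11 fell, and KLF2 and KLF9 were not called. KLF10, the member with the largest fall, had no window to search. The part of these letters in the changes was not tested. The full element TGACGTCA, which holds TGACG, was found in 0 of the 8 windows and in 1.85% of all windows.

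Other letters were searched on both strands of the same windows. GGGCGG, the box bound by SP and KLF factors, was in the windows of 6 of 8 members and in 45% of all windows. CACCC, the other sequence that these factors bind, was in 3 of 8 against 59.9%. The core of the MEF2 motif (CTA, any 4 bases, TAG) was in 1 of 8, that of KLF2, against 2.73%, and neither TATAAA (11.5% of all windows) nor the palindrome GAANNTTC (6.77%) was in any of the 8. The KLF9 window had a GC content of 32.7%, where the median of all windows was 58.7%. These are matches of letters and not measured binding.

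After treatment with BRL-50481 the transcripts of 6 of the 10 members were lower, and 0 passed the test upwards. KLF10, KLF5, KLF11, KLF6, KLF13 and KLF7 fell, whereas KLF2, KLF3, KLF4 and KLF9 were not called. The test was limma on log2(normalized count + 1), adjusted by the Benjamini-Hochberg method over all genes, and a call means an adjusted p under 0.05. The treatment moved a large part of the transcriptome, with 29.8% of all tested genes called lower and 28.9% called higher. Those shares are the background for the 6 and 0 of 10 members and for every count of called genes by class or list. The median log2 fold change was -0.28 over the members and 0.01 over all genes tested. Over the 6 other KLF genes in the table it was 0.77, with 2 called higher and 2 lower. KLF8, KLF14 and KLF17 among those had low counts. The 3 treated libraries all lay below the 3 controls for 6 members, as for 32.3% of all genes, and all above them for 1 member, as for 31.9% of all genes.

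**Figure D1:**
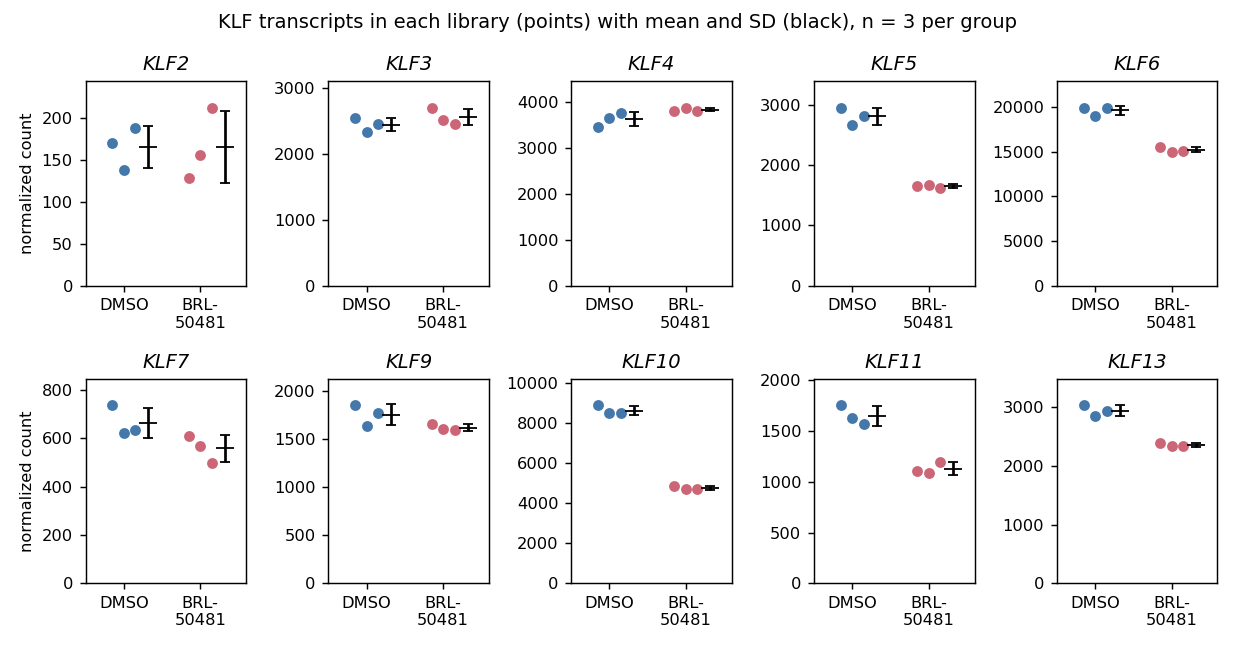
Normalized count (y axes, each from 0) of the 10 KLF genes in the 3 DMSO and the 3 BRL-50481 libraries, 1 point per library, with the mean and SD of each group in black. The groups lie apart, with BRL-50481 lower, for KLF5, KLF6, KLF7, KLF10, KLF11 and KLF13, and the points overlap for KLF2, KLF3 and KLF9.

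The largest fall among the members was that of KLF10, a SIN3-binding repressor first described as an early gene induced by TGF-β. KLF10 had 8891, 8494 and 8528 normalized counts in the DMSO libraries and 4880.5, 4726 and 4693 in the BRL-50481 libraries. All 3 treated libraries were far below all 3 controls, and the libraries of each group were close to each other. The mean went from 8638 to 4767 (n = 3 each), a change of -44.8%. On the log2 scale it fell by 0.86 (SE 0.046, 95% interval -0.96 to -0.76, limma adjusted p = 1.13e-08), and 5% of all tested genes fell further.

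KLF11, the closest relative of KLF10 and likewise a TGF-β-inducible SIN3-binding factor, moved the same way by less. It had 1749, 1625 and 1564 normalized counts in DMSO and 1106, 1083 and 1198 in BRL-50481, without overlap. The change of the mean was -31.4%, from 1646 ± 94.5 to 1129 ± 60.9 (SD, n = 3). On the log2 scale KLF11 fell by 0.54 (SE 0.066, 95% interval -0.69 to -0.40, limma adjusted p = 1.24e-05).

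KLF13, which also recruits SIN3 and is known as an activator of the chemokine gene CCL5 in T cells, had 3035, 2847 and 2948 normalized counts in DMSO. In BRL-50481 it had 2402, 2337 and 2345, all lower than any control. KLF13 fell by 0.32 on the log2 scale (SE 0.051, 95% interval -0.43 to -0.21, limma adjusted p = 0.000142), a change of -19.8% in the mean. KLF9, a glucocorticoid- and thyroid hormone-responsive member of the same class, had 1848.5, 1638 and 1771 normalized counts in DMSO and 1656, 1606 and 1590 in BRL-50481. The groups overlapped, because DMSO replicate 2 lay among the treated libraries. The log2 fold change of KLF9 was -0.11 (SE 0.061, 95% interval -0.25 to 0.02, limma adjusted p = 0.122). Without DMSO replicate 2 it was -0.16 with adjusted p = 0.0342, and with a correction for transcript length and GC content it was -0.20 with adjusted p = 0.000781, both calls that the main test did not make.

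The 2 genes of the SIN3-binding class that were not among the 10 members were KLF16 and KLF14. KLF16, first described as a regulator of dopamine receptor genes, had 1965, 2317 and 2488 normalized counts in DMSO and 1510.1, 1504 and 1542 in BRL-50481, and fell by 0.56 on the log2 scale (limma adjusted p = 3.32e-05). KLF14, an imprinted gene linked to metabolism, had at most 6.79 normalized counts in any library and was not called (limma adjusted p = 0.158). Of the 6 genes of this class, 4 fell, 0 rose and 2 did not pass, with a median log2 fold change of -0.43 where all genes had 0.01. Beside these class counts, 29.8% of all tested genes were called lower and 28.9% higher.

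In the class that binds acetyltransferases, KLF5 had the largest fall. KLF5 promotes the proliferation of basal epithelial cells and is studied as a growth factor-responsive gene in triple-negative breast cancer. It had 2956, 2670.3 and 2818 normalized counts in DMSO and 1661, 1676 and 1619 in BRL-50481. The treated libraries were nearly equal and well under the controls. The mean went from 2815 ± 143 to 1652 ± 29.8 (SD, n = 3), a change of -41.3%. KLF5 fell by 0.77 on the log2 scale (SE 0.056, 95% interval -0.89 to -0.65, limma adjusted p = 1.47e-07), and 6.28% of all tested genes fell further.

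KLF6 is a widely expressed immediate-early factor studied as a tumour suppressor. It had 19898, 19071 and 19943 normalized counts in DMSO and 15545, 15012 and 15149 in BRL-50481, with no overlap. KLF6 fell by 0.37 on the log2 scale (SE 0.043, 95% interval -0.46 to -0.27, limma adjusted p = 9.68e-06), a change of -22.4%. Of all tested genes, 21% fell further, and 1.45% of all tested genes had a larger mean normalized count, not divided by length, than KLF6.

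KLF7, a relative of KLF6 known for its role in neurons, had 736, 621 and 636 normalized counts in DMSO and 608, 567 and 500.1 in BRL-50481. The groups did not overlap, but DMSO replicate 2 and BRL-50481 replicate 1 were close. KLF7 fell by 0.25 on the log2 scale (SE 0.093, 95% interval -0.45 to -0.05, limma adjusted p = 0.0323). This call was lost without DMSO replicate 1 (-0.18, adjusted p = 0.059), without BRL-50481 replicate 2 (-0.27, adjusted p = 0.0694), without BRL-50481 replicate 3 (-0.17, adjusted p = 0.165), with median centring (-0.22, adjusted p = 0.0579) and in limma without a trend (adjusted p = 0.0909).

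KLF4 and KLF2, the other members of this class, were not called. KLF4, one of the factors used to reprogram cells to pluripotency and an inducer of CDKN1A, had 3455, 3638 and 3763 normalized counts in DMSO and 3804, 3870 and 3804 in BRL-50481. All 3 treated libraries were above all 3 controls, by little. The log2 fold change of KLF4 was 0.08 (SE 0.050, 95% interval -0.03 to 0.19, limma adjusted p = 0.182). With quantile normalization it was 0.13 (adjusted p = 0.0409) and with the length and GC correction 0.11 (adjusted p = 0.0122), both past the threshold.

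KLF2, the factor of quiescent endothelial and T cells, was the member with the widest interval. It had 171, 138 and 188 normalized counts in DMSO and 128, 156 and 212 in BRL-50481, and the groups covered each other. Its log2 fold change was -0.02 (SE 0.18, 95% interval -0.40 to 0.36, limma adjusted p = 0.927). An increase or a decrease of moderate size in KLF2 was therefore not detectable at this depth and spread. The last gene of the class, KLF1, was not in the table. Of the 5 genes of the class that were, 3 fell, 0 rose and 2 did not pass, with a median log2 fold change of -0.25. Among all tested genes 29.8% were called lower and 28.9% higher.

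KLF3, a repressor of the CtBP-binding class known from adipocytes and erythroid cells, was not called. It had 2547, 2344 and 2452.5 normalized counts in DMSO and 2707, 2525 and 2466 in BRL-50481, with overlap. The log2 fold change of KLF3 was 0.07 (SE 0.057, 95% interval -0.06 to 0.19, limma adjusted p = 0.327), an interval that does not reach the falls of KLF5 and KLF10. KLF12, a repressor of the AP-2α gene in the same class and not one of the 10 members, had 745, 608 and 568 normalized counts in DMSO and 942, 978 and 970.2 in BRL-50481. KLF12 rose by 0.60 on the log2 scale (SE 0.091, limma adjusted p = 9.31e-05), with all treated libraries above all controls.

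KLF8, the remaining CtBP-binding gene, is studied as an inducer of the epithelial to mesenchymal transition and was rare in these cells. It had 14.9, 36.2 and 33.7 normalized counts in DMSO and 48.3, 58.4 and 49.4 in BRL-50481, a log2 rise of 0.95 (limma adjusted p = 0.0153). That call was lost without BRL-50481 replicate 2 (0.86, adjusted p = 0.0668) and without a trend (adjusted p = 0.0647). In this class 2 of 3 genes rose and 0 fell, with a median log2 fold change of 0.60, where 28.9% of all tested genes rose and 29.8% fell.

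Among the KLF genes outside these classes, KLF15, a regulator of gluconeogenesis and amino acid breakdown that responds to glucocorticoids, fell. It had 264, 287 and 304 normalized counts in DMSO and 186, 213.5 and 225 in BRL-50481 (log2 fold change -0.45, limma adjusted p = 0.00287). KLF17, a factor of the early embryo, had at most 17.1 normalized counts in any library and was not called (log2 fold change 0.99, limma adjusted p = 0.0564). It was called in 4 alternatives: without DMSO replicate 2 (1.29, adjusted p = 0.0224), with a pseudocount of 4 (0.76, 0.0476), with median centring (1.02, 0.0496) and with the length and GC correction (0.99, 0.0499). KLF18 was not in the table, and KLF3-AS1, the antisense gene of KLF3, was under the filter with at most 6.79 normalized counts.

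The SP factors, which bind the same GC boxes, also moved in both directions. SP6, an epithelial factor, had 292, 301 and 276 normalized counts in DMSO and 160.1, 148 and 187 in BRL-50481, and fell by 0.81 on the log2 scale (limma adjusted p = 4.21e-05). SP5, a target of Wnt signalling, and SP4, a factor of neurons, changed by -0.66 (adjusted p = 0.00764) and -0.41 (adjusted p = 0.00512) on the log2 scale. SP2, a ubiquitous member, was not called at -0.12 (adjusted p = 0.185), and SP7, SP8 and SP9 were not in the table.

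SP1 and SP3, the ubiquitous factors of this family, were called higher by small amounts. SP1 had 4212, 3362 and 3427 normalized counts in DMSO and 4115, 4125 and 4161 in BRL-50481, with overlap at DMSO replicate 1, and its log2 fold change was 0.18 (limma adjusted p = 0.0499). The SP1 call held in 7 of 17 alternatives, and was lost when any one library other than DMSO replicate 1 was left out (0.12 to 0.18, adjusted p from 0.117 to 0.193). SP3 rose by 0.20 on the log2 scale (limma adjusted p = 0.00995), a call lost without DMSO replicate 3 (0.17, adjusted p = 0.0555) and without BRL-50481 replicate 1 (0.18, adjusted p = 0.0516). With the length and GC correction its direction turned, at -0.01 (adjusted p = 0.869).

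**Figure D2:**
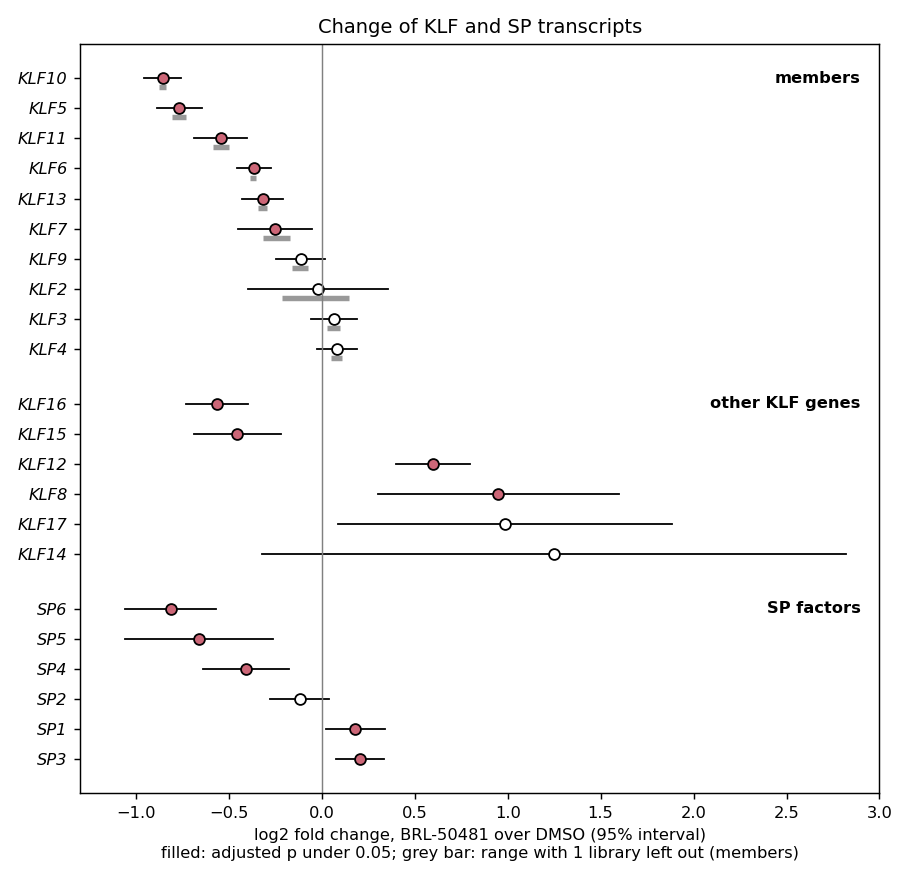
Log2 fold change of BRL-50481 over DMSO (x axis) with its 95% interval for the 10 KLF members, 6 other KLF genes and 6 SP genes (rows); filled points have an adjusted p under 0.05 and grey bars span the values with 1 library left out. KLF10 and KLF5 lie farthest to the left among the members, at -0.86 and -0.77, and no member has a filled point to the right of 0.

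To order the members by level, counts were divided by the length of the canonical GENCODE transcript. On this scale, normalized counts per kilobase, KLF6 was first in both groups, at 4278 ± 107 with DMSO and 3319 ± 60.2 with BRL-50481 (SD over 3 libraries). KLF10 was second at 2963 ± 75.5 and 1635 ± 34.3, followed by KLF4 at 1232.5 ± 52.8 and 1303 ± 12.9. KLF5 came next, at 841 ± 42.6 and 493 ± 8.89. The levels then dropped to KLF3 (438 ± 18.1 in DMSO), KLF13 (430.0 ± 13.8), KLF11 (408 ± 23.4) and KLF9 (337 ± 20.49), and further to KLF7 (79.4 ± 7.48) and KLF2 (58.7 ± 8.97). In DMSO the libraries of KLF3 and KLF13 overlapped, as did those of KLF13 and KLF11, and the other neighbours in this order did not. In BRL-50481 the order was the same except that KLF9, at 311 ± 6.67, stood above KLF11, at 279.8 ± 15.1. There the libraries of KLF5 and KLF3 overlapped, as did those of KLF7 and KLF2, and the other neighbours did not.

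**Figure D3:**
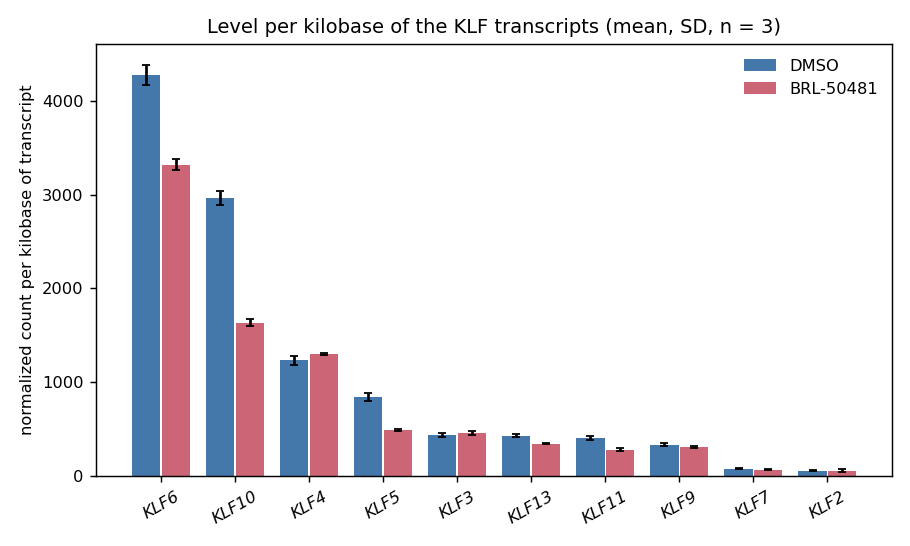
Mean normalized count per kilobase of the canonical transcript (y axis, from 0) of the 10 KLF genes in DMSO and BRL-50481, with error bars of 1 SD over 3 libraries. KLF6 and KLF10 stand highest in both groups, and the bars of KLF10 and KLF5 show the largest relative drops.

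The summed level of the 10 members per kilobase was 11281, 10781 and 11134 in DMSO and 8398, 8204 and 8210.5 in BRL-50481, a change of -25.3%. The groups did not overlap, and the exact two-sided permutation test gave p = 0.1, the smallest value that 3 against 3 libraries allow. Without KLF6 the change of the sum was -27.0%. The share of KLF10 in the sum went from 26.8% ± 0.436 to 19.8% ± 0.164 (SD, n = 3). These shares depend on the transcript chosen. With the longest transcript of KLF10 its level in DMSO was 2361 per kilobase, where the canonical one gave 2963. The share of KLF4, whose own count was not called different, was 11.2% in DMSO and 15.8% in BRL-50481.

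The ratio of undivided normalized counts of KLF4, which favours differentiation in textbooks, to KLF5, which favours proliferation, was 1.17, 1.36 and 1.33 in the DMSO libraries. In the BRL-50481 libraries it was 2.29, 2.31 and 2.35, each above every control, with means of 1.29 ± 0.105 and 2.32 ± 0.0307 (SD, n = 3). The ratio restates the fold changes of both genes, was chosen with them known and is given as a description. Transcript length, which sets its level, does not enter its change between groups.

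The genes through which KLF proteins act were read next, beside 29.8% of all tested genes called lower and 28.9% called higher. Of 10 CtBP and SIN3 corepressor genes, 6 fell, 1 rose and 3 did not pass, with a median log2 fold change of -0.29. The scaffold gene SIN3A changed by -0.22 (limma adjusted p = 0.00579) and its paralog SIN3B was not called at 0.10. The histone deacetylase genes HDAC1 and HDAC2 changed by -0.40 and -0.39 and the histone-binding subunit RBBP4 by -0.49 (adjusted p = 8.59e-06, 9.99e-06 and 2.58e-06). The CtBP genes went opposite ways. CTBP1 rose from 3020 ± 289.6 to 3789 ± 117 normalized counts and CTBP2 fell from 5635 ± 119 to 4373 ± 24.9 (SD, n = 3, limma adjusted p = 0.000827 and 1.56e-05). Among 4 acetyltransferase genes, EP300, CREBBP and KAT2B rose by 0.44, 0.25 and 0.49 and KAT2A changed by -0.40 on the log2 scale. Leaving out BRL-50481 replicate 3 ended the CREBBP call (0.21, adjusted p = 0.0572).

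KLF proteins are short-lived, and 9 genes of ubiquitin ligases and deubiquitinases that act on them were examined. Of these, 2 rose, 3 fell and 4 did not pass, where 28.9% of all tested genes rose and 29.8% fell. Their median log2 fold change was -0.01. The ligase gene ITCH rose from 5219 ± 471 to 6645 ± 232 normalized counts, and BTRC, the F-box gene of another ligase, fell from 1542 ± 109.6 to 1287 ± 13.9 (SD, n = 3, limma adjusted p = 0.000316 and 0.00358). WWP1, a ligase for KLF2 and KLF5, was not called at 0.07 (adjusted p = 0.351). The deubiquitinase gene BAP1 was at -0.04 (adjusted p = 0.551). Only the calls on ITCH and BTRC held in all 17 alternatives. Those on FBXW7 (0.19), SIAH1 (-0.21) and USP10 (-0.19) ended without BRL-50481 replicate 1 (0.19, -0.21 and -0.17, adjusted p = 0.0902, 0.0633 and 0.0603) and without BRL-50481 replicate 3 (0.21, -0.15 and -0.18, adjusted p = 0.0684, 0.137 and 0.0547), and that on FBXW7 also without any one of DMSO replicates 2 and 3 and BRL-50481 replicate 2.

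Signalling routes that induce KLF genes in other cells were read in the same way, beside 28.9% of all tested genes called higher and 29.8% lower. In the ERK5-MEF2 route, which induces KLF2 and KLF4 in endothelium, 3 of 7 genes rose and 0 fell. MAP2K5, the kinase above ERK5, rose by 0.72 on the log2 scale, from 410.2 ± 43.0 to 676 ± 43.9 normalized counts (SD, n = 3, limma adjusted p = 1.83e-05), and this was the only one of the 3 calls that held in all 17 alternatives. The calls on the factor genes MEF2A (0.18) and MEF2D (0.13) both ended without DMSO replicate 2, without BRL-50481 replicate 1 and without BRL-50481 replicate 2, at 0.11 to 0.19 and 0.11 to 0.14 with adjusted p of 0.0833 to 0.16, the first also without DMSO replicate 3 and the second without BRL-50481 replicate 3 (adjusted p = 0.0738 and 0.163). MAPK7, which encodes ERK5, was not called at -0.13 (adjusted p = 0.289). With the length and GC correction MAP3K2 was called lower (-0.21, adjusted p = 0.000149), which the main test did not do. In that setting MEF2A and MEF2D also lost their calls (adjusted p = 0.108 and 0.126). The MEF2D call ended in edgeR (adjusted p = 0.0538) and DESeq2 (adjusted p = 0.0673) as well. In TGF-β signalling, which induces KLF10 and KLF11 in other cells, 4 of 10 genes rose and 0 fell. The receptor gene TGFBR2 went from 9767 ± 480.4 to 15760 ± 384 normalized counts and the ligand gene TGFB2 from 3969.5 ± 698 to 5623 ± 88.3 (SD, n = 3, limma adjusted p = 1.06e-07 and 0.000316). The rise of the ligand gene TGFB1 (0.16) was lost without BRL-50481 replicate 1 (0.15, adjusted p = 0.0555), without BRL-50481 replicate 3 (0.15, adjusted p = 0.0714) and without a trend (adjusted p = 0.0548). SMAD7, the inhibitory SMAD that KLF10 represses, had a log2 fold change of -0.20 that did not pass (adjusted p = 0.0989), but was called lower without DMSO replicate 3 (-0.28, adjusted p = 0.0352). With the length and GC correction SMAD2 (-0.50), SMAD4 (-0.29) and TGFBR1 (-0.18) were called lower too (adjusted p = 5.91e-05, 7.34e-05 and 0.000346), so that the count of 0 that fell became 3. SMAD4 was also called lower without DMSO replicate 2 (-0.16, adjusted p = 0.0496) and with a minimum mean of 20 (adjusted p = 0.0476), and TGFBR3 was called higher without DMSO replicate 1 (0.17, adjusted p = 0.0149).

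KLF9 and KLF15 are targets of the glucocorticoid receptor, so its gene and other known targets were listed beside nuclear receptor genes. NR3C1, the receptor gene, rose from 5643 ± 604 to 7513 ± 141 normalized counts (SD, n = 3, limma adjusted p = 0.000114). Its textbook targets in the list fell: FKBP5 by 0.44, TSC22D3 by 0.69, PER1 by 0.37 and DUSP1 by 1.26 on the log2 scale. DUSP1, a phosphatase of MAP kinases that is also an immediate-early gene, had 5943, 6859 and 6580.3 normalized counts in DMSO and 2576, 2747 and 2737 in BRL-50481 (adjusted p = 3.85e-09). Over the 8 genes tested 1 rose, 4 fell and 3 did not pass, with a median of -0.21, where 28.9% of all tested genes rose and 29.8% fell. NR3C2, THRA and THRB, the genes of the mineralocorticoid and thyroid hormone receptors, were the 3 that did not pass.

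Genes named in the literature as targets of KLF proteins moved both ways. Of the 13 tested, 7 rose, 3 fell and 3 did not pass, where 28.9% of all tested genes rose and 29.8% fell. Their median log2 fold change was 0.23. The call on S1PR1 ended in DESeq2 (adjusted p = 0.0556). It also ended without any one of DMSO replicates 2 and 3 and BRL-50481 replicates 2 and 3 (adjusted p from 0.055 to 0.113). LGALS3 lost its call without a trend (adjusted p = 0.0591). NOS3 was called lower with quantile normalization (adjusted p = 0.0468) and without BRL-50481 replicate 2 (0.0438). MAOA was called higher without DMSO replicate 1 (0.023), and PDGFA with the length and GC correction (0.0211). The largest changes were those of CCNB1, the mitotic cyclin that KLF4 can repress, which rose from 2334 ± 69.7 to 7315 ± 148 normalized counts (SD, n = 3, limma adjusted p = 1.3e-10), and of MAOB, a monoamine oxidase gene that KLF11 can activate, at 23.2 ± 7.40 and 68.7 ± 10.7 (adjusted p = 0.000139). CDH1, the E-cadherin gene, and ENG, the endoglin gene, were at 38.2 ± 9.13 and 99.8 ± 6.07 and at 19.0 ± 4.32 and 39.5 ± 5.71, both low levels (adjusted p = 4.28e-05 and 0.00409). CCND1, the cyclin D1 gene and a reported target of KLF5 and KLF8, was singled out after its values were seen. It fell from 33917 ± 861 to 20636 ± 189 normalized counts, by 0.72 on the log2 scale (adjusted p = 2.58e-08). In the same comparison KLF5 fell by 0.77 and KLF8 rose by 0.95, and their part in the CCND1 values was not tested. Of the rest of the list, CDKN1A (-0.405) and S1PR1 (-0.27) fell. BIRC5 (0.68), THBD (0.57) and LGALS3 (0.23) rose, and NOS3, PDGFA and MAOA did not pass.

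**Figure D4:**
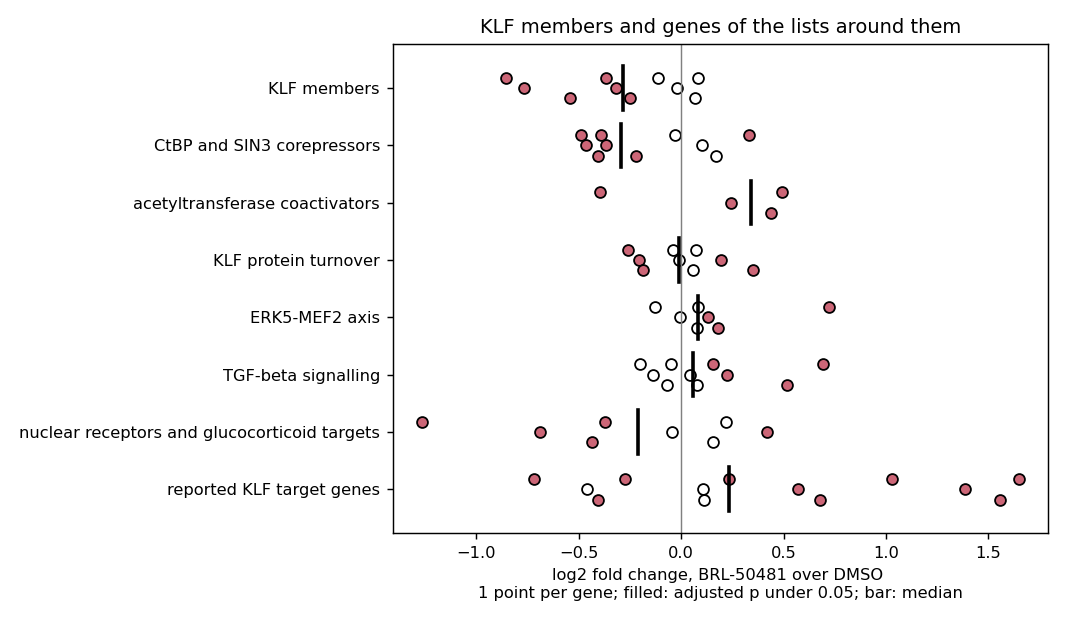
Log2 fold change of BRL-50481 over DMSO (x axis) for the 10 KLF members and for the tested genes of 7 lists around them (rows), 1 point per gene, filled where the adjusted p was under 0.05, with a bar at the median of each row. The medians of the members and of the corepressors lie at -0.28 and -0.29, and that of the acetyltransferases at 0.34.

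Genes with a pattern like that of a member were sought over the 6 libraries among 11455 genes with a mean of at least 100 normalized counts, by the Euclidean distance of log2 values centred on each gene's mean. Nearest to KLF10, the member with the largest fall, were SCML1 (distance 0.0376), TOB1 (0.0433) and TMEM64 (0.0618), with log2 fold changes of -0.85, -0.83 and -0.84. TOB1 is an antiproliferative gene, and SCML1 belongs to the Polycomb-related SCM family. Nearest to KLF4 were BOK (0.0324), ZNF75D (0.036) and NELFB (0.0363), with log2 fold changes of 0.07, 0.09 and 0.06. The distances rest on 6 libraries in 2 groups and describe likeness of values only.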

How the data were processed

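The authors sequenced single-end, strand-specific libraries, aligned reads to hg38 with STAR 2.7.1a, assigned them to UCSC genes with htseq-count (strand set to reverse) and normalized them with DESeq2 1.28. The deposited signal is the read count divided by the DESeq2 size factor, and 100% of 93906 values were whole multiples of 1 read (within 0.05). The table also holds the authors' mean, log2 fold changes and p-values, which were not used. The labels and the series text differ on oligo-dT selection or ribosomal depletion.

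Genes with at least 4 normalized counts in at least 3 libraries were tested with limma 3.58.1 (R 4.3.3; eBayes with a trend) on log2(normalized count + 1), groups as the only term, so a log2 fold change is on that scale and understates low genes. Alternatives were pseudocounts of 0.5 and 4, other filters, quantile normalization, median centring, no trend, edgeR 4.0.16 and DESeq2 1.42.0 on the recovered reads, a replicate block, each library left out, and a loess correction for length and GC content. For that correction 15105 of 15651 genes (96.5%) had GENCODE values, 889 through RefSeq synonyms. The test was checked on simulated data. Named were all members and KLF or SP genes, genes of lists of up to 10 genes, the 4 called genes of longer lists with the largest changes, PDE7A and the 3 genes most like the extreme members. The other genes of the list of KLF targets were named outside this rule. The members and lists were chosen with earlier results of these data known. Opposite-strand exons overlap KLF3, KLF4 and KLF11. Replicates are named as biological in the study, and the p-values measure the spread between these libraries.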

Additional observations from a re-analysis of the deposited data

How the results depend on the processing

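Each member's log2 fold change was recomputed under 17 alternatives. KLF5, KLF6, KLF10, KLF11 and KLF13 were called lower in all 17, with extremes of -0.81 to -0.72, -0.43 to -0.29, -0.88 to -0.83, -0.59 to -0.50 and -0.38 to -0.26. Of all 170 values, 152 kept direction and side of the threshold, 5 lost the call (all KLF7), 4 gained one (KLF4 and KLF9) and 9 turned direction. Of those 9, 8 were KLF2. They were 0.009046 with median centring, 0.0005849 with edgeR, 0.001335 with DESeq2 and 0.05135 with the length and GC correction. With a library left out they were 0.006272 without DMSO replicate 1, 0.07549 without DMSO replicate 3, 0.1477 without BRL-50481 replicate 1 and 0.00457 without BRL-50481 replicate 2. The other value that turned was KLF3, at -0.03336 with the length and GC correction. All KLF2 values with a library left out, turned or not, lay between -0.216 and 0.148. The count of members called higher moved from 0 to 1 (KLF4) with quantile normalization and to 1 with the length and GC correction, and that of members called lower ranged from 5 to 7. The causes were not tested. Over all genes, 3751 to 4876 were called higher and 4027 to 5018 lower. Median centring moved the median of all genes from 0.0148 to 0.045, and no alternative moved it by over 0.1. Whether replicate numbers pair the samples was left undecided. The correlations of same-numbered deviations were 0.121, 0.104 and 0.0514 over 12251 genes, and those of the other pairs lay between -0.159 and 0.0607. Each DMSO library correlated best with the BRL-50481 library of its number. BRL-50481 replicate 3, however, correlated best with DMSO replicate 2 (0.0607). A fit with the replicate block called 4440 genes higher and 4589 lower and kept 6 members lower and 0 higher. At 128 to 212 normalized counts, KLF2 is the member with the lowest counts and the widest interval. The part of depth in that interval was not tested.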
